A study of Mus musculus with 6 samples.

Results

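The proteasome genes were examined in macrophages taken from liver tumours of mice given PLX3397 or vehicle. They were the genes whose symbol begins with Psma to Psmg and a digit, together with the maturation factor gene Pomp, and 51 of the 19938 genes on the array that could be named met this rule. Each was represented by its brightest probe set, the group of array probes that reports 1 transcript. Of the 51, 31 encode constitutive subunits, 5 are the immunoproteasome genes Psmb8, Psmb9, Psmb10, Psme1 and Psme2, and 15 encode other activators, an inhibitor, assembly factors, tissue-specific subunits and a pair of partner proteins (Psmc3ip and Psme3ip1) that the naming pattern takes in although they are not subunits. The macrophages had been sorted by flow cytometry from hepa1-6 tumours, grown from a mouse hepatoma cell line implanted in the liver of C57BL/6 mice. There were 3 arrays from mice given PLX3397, which blocks the receptor kinases CSF1R, KIT and FLT3, and 3 from mice given vehicle, and all 6 samples came from tumour-bearing mice. The labels give no age, dose or length of treatment, and name the arrays as biological replicates. Whether each had its own mouse is not said, so the p-values cover the spread between arrays, which may be partly technical.

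The proteasome is the protease that degrades proteins tagged with ubiquitin. Its 20S core is a barrel of alpha rings, which gate the entry, and beta rings, which hold the catalytic sites, and the 19S regulatory particle binds, unfolds and feeds in the substrate. In cells exposed to interferon-gamma the catalytic subunits encoded by Psmb5, Psmb6 and Psmb7 can be replaced by those encoded by Psmb8, Psmb9 and Psmb10, which gives the immunoproteasome, and Psme1 and Psme2 encode the PA28 activator that caps it. The immunoproteasome alters which peptides are offered to MHC class I molecules, and many immune cells make some of it without stimulation.

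The listed macrophage genes were bright in both groups, apart from Mertk, which averaged 6.51 log2 on PLX3397 arrays and 6.88 on vehicle arrays. Adgre1, which encodes a surface receptor that defines mouse macrophages, averaged 11.40 ± 0.10 on the log2 scale on PLX3397 arrays and 11.81 ± 0.03 on vehicle arrays, and the lysosomal gene Cd68 averaged 11.20 ± 0.01 and 11.26 ± 0.08 (SD, n = 3 each). The counts of markers that follow stand beside 19.6% of all genes called higher and 18.3% called lower with PLX3397. Of 7 macrophage markers 1 rose, Itgam (change 0.97), and 3 fell, Fcgr1 (-0.79), Adgre1 (-0.42) and Mertk (-0.37). Their summed linear level was 17144 to 18572 on PLX3397 arrays and 17688 to 18106 on vehicle arrays. Of 8 dendritic cell markers 4 passed the test as higher with PLX3397 and 0 as lower, with a summed linear level of 1824 to 2412 on PLX3397 arrays, against 296 to 339 on vehicle arrays. That sum came mainly from Itgax (log2 values of 10.98, 10.65 and 10.95 on PLX3397 arrays, against 7.92, 7.66 and 7.89 on vehicle arrays) and Ccr7. The other higher markers, Zbtb46 and Batf3, averaged below 5 log2, Flt3 and Cd209a did not pass, and Xcr1 and Clec9a, which define a dendritic subset, were not above background on any array. Of 6 endothelial markers 4 were higher and 0 lower, with a summed level of 407 to 421 on PLX3397 arrays and 145 to 159 on vehicle arrays, and Tek was not above background on any array. Neutrophil markers (2 of 7 higher, 0 lower) summed to 399 to 726 on PLX3397 arrays and 226 to 242 on vehicle arrays, and S100a8 made up most of that sum. The other neutrophil gene called higher, Ly6g, was not above background on any array, nor were Elane and Retnlg. Of 6 T cell markers only Lat rose, with Cd3d and Cd3g not above background. Of 4 B cell markers 3 were called higher, but Cd79a and Ms4a1 among them were not above background on any array, which leaves Cd79b. Further, 2 of 5 fibroblast markers fell, and none of 6 NK cell or 6 hepatocyte markers passed, Alb and Ttr being at background. The part of such cells in the proteasome values was not tested, and in sorted bulk samples fewer cells of a type and less RNA per cell cannot be told apart. The description fields also give each sample a second name, IL4 macrophages in the PLX3397 samples and LPS with interferon-gamma in the vehicle samples, which goes against the titles and treatment labels used here. As interferon-gamma acts on the immunoproteasome genes, every direction below rests on the titles. PLX3397 replicate 3 was the lowest PLX3397 array for 22 of the 27 proteasome genes that fell.

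Most proteasome genes had less transcript in macrophages from PLX3397-treated mice. In the limma comparison 27 of the 51 fell and 2 rose, where a fall or rise means an adjusted p below 0.05 over all 19938 genes. These 29 are 56.9% of the proteasome genes, against 37.8% of all genes. Among all genes 18.3% passed as lower and 19.6% as higher, against 52.9% and 3.92% of the proteasome genes. The median change, PLX3397 minus vehicle, was -0.25 log2 over the proteasome genes and 0.04 over all genes. Proteasome transcripts are bright, and among the 2971 genes at least as bright as the dimmest constitutive subunit (a mean of 7.45) 34.7% were lower, 30.3% were higher and the median change was -0.05. The arrays of the groups did not overlap for 37 of the 51 genes, or 72.5%, against 49.3% of all genes. All 5 immunoproteasome genes and all 31 constitutive subunit genes exceeded the background level on every array. The 2 members that did not, Psma8 and Psmb11, encode subunits of the testis and the thymus, and had changes of -0.15 (adjusted p = 0.485) and -0.11 (adjusted p = 0.417). Without PLX3397 replicate 3, 25 proteasome genes fell and 2 rose.

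**Figure D1:**
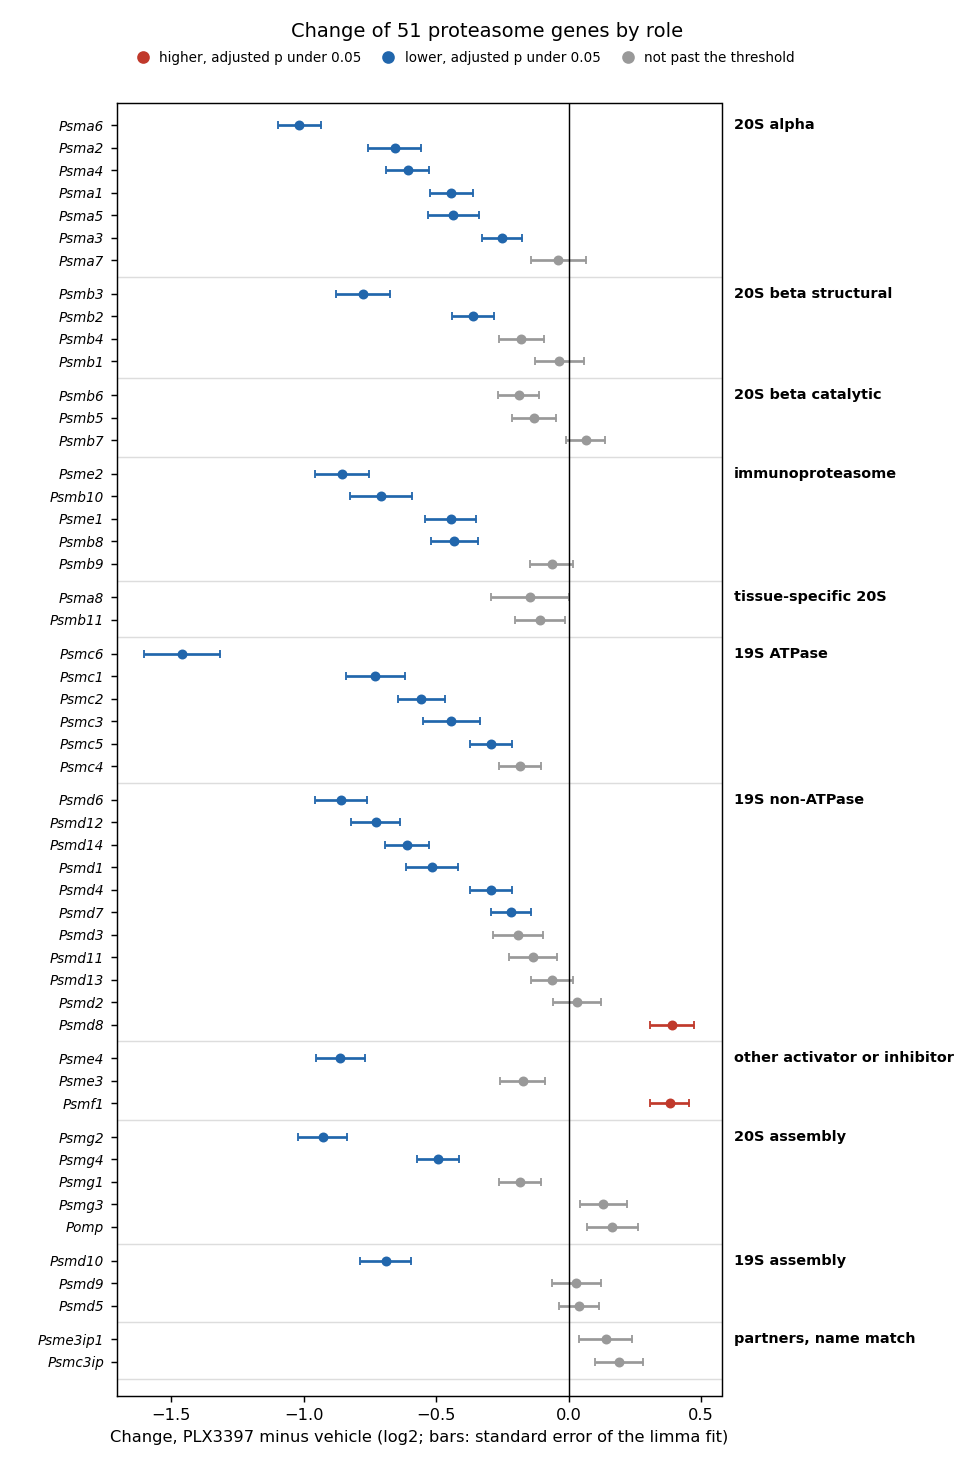
Change of each of the 51 proteasome genes, PLX3397 minus vehicle on the log2 scale, in groups by role. Points are limma estimates with their standard errors, blue for the 27 genes that fell, red for the 2 that rose and grey for the 22 that did not pass. The 3 constitutive catalytic subunits lie between -0.19 and 0.06, and Psmc6 lies farthest to the left at -1.46.

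Among the immunoproteasome genes 4 of 5 fell and Psmb9 did not pass the test. Falls were also seen for 19 of the 31 constitutive subunit genes, or 61.3%, and for 34.7% of the bright genes defined above. Psmb8, which encodes the immunoproteasome form of the chymotrypsin-like subunit, had log2 values of 9.18, 9.22 and 8.998 on PLX3397 arrays, against 9.65, 9.54 and 9.50 on vehicle arrays. Every PLX3397 array lay below every vehicle array, and the change was -0.43 (SE 0.09, adjusted p = 0.00327), a 1.35-fold lower level. Psmb10, the immunoproteasome form of the trypsin-like subunit, had 8.32, 8.40 and 7.94 on PLX3397 arrays and 8.97, 8.91 and 8.91 on vehicle arrays. It was 1.63-fold lower (change -0.71, SE 0.12, adjusted p = 0.000728), with the lowest value on PLX3397 replicate 3, and the change was -0.57 without that array. Psmb9, which takes the remaining catalytic place, had 7.88, 7.94 and 7.89 on PLX3397 arrays and 8.06, 7.94 and 7.90 on vehicle arrays. These groups overlapped, and the change of -0.06 (SE 0.08, adjusted p = 0.582) had a 95% interval of -0.24 to 0.12.

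Both genes of the PA28 activator fell. Psme2 had 8.91, 9.22 and 8.88 on PLX3397 arrays and 9.87, 9.79 and 9.91 on vehicle arrays, a 1.81-fold lower level that gave the largest fall of the 5 genes (change -0.85, SE 0.10, adjusted p = 8.89e-05). Psme1 had 9.42, 9.45 and 9.18 on PLX3397 arrays, against 9.87, 9.81 and 9.71 on vehicle arrays (change -0.45, SE 0.10, adjusted p = 0.00404). For both genes the PLX3397 arrays were all below the vehicle arrays. A further probe set is shared by Psme2 and its near-identical copy Psme2b, so their transcripts cannot be told apart there. It had 7.55, 7.49 and 7.13 on PLX3397 arrays and 8.38, 8.23 and 8.41 on vehicle arrays, with a change of -0.95 (SE 0.12, limma adjusted p = 0.000182 over all 28941 probe sets).

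**Figure D2:**
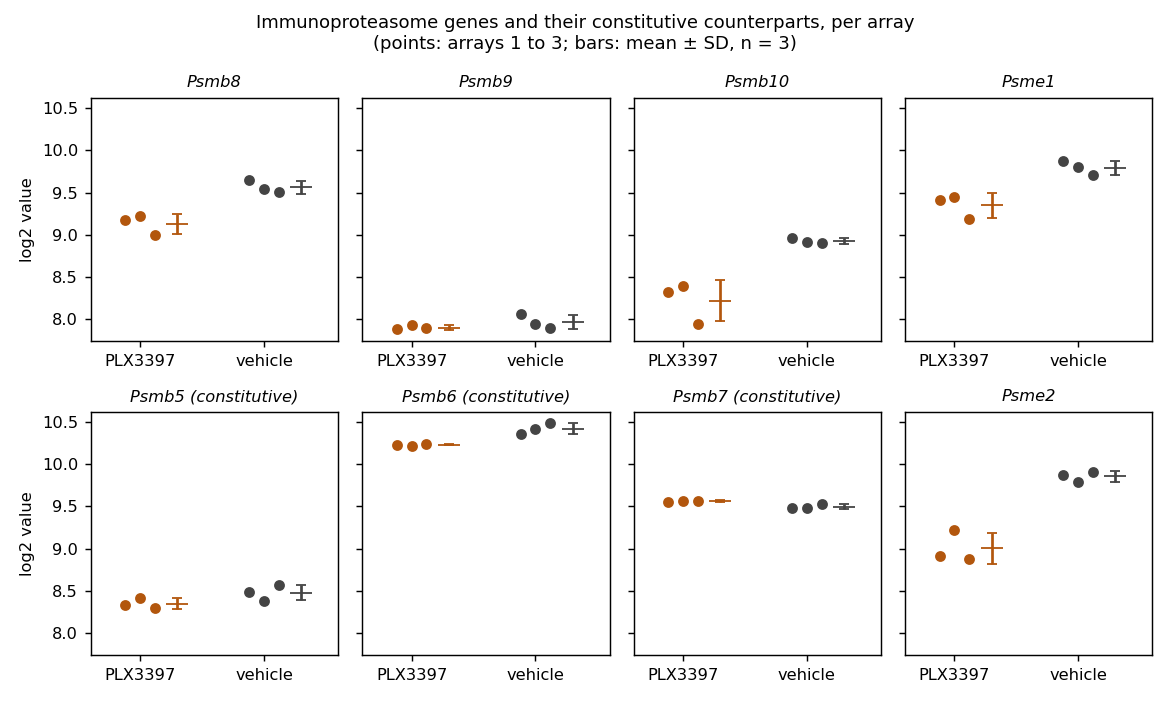
Log2 value of the immunoproteasome genes and of the constitutive catalytic genes on each array, with PLX3397 on the left and vehicle on the right of each panel. Points are single arrays and bars the mean ± SD of 3. Psmb8, Psmb10, Psme1, Psme2 and the constitutive Psmb6 are lower on all PLX3397 arrays. Psmb7 is slightly higher on all of them, while Psmb9 and Psmb5 overlap. Heights of different genes are not comparable, since each has its own probes.

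None of the genes for the constitutive catalytic subunits passed the test. Psmb5, the chymotrypsin-like subunit, had 8.33, 8.42 and 8.29 on PLX3397 arrays and 8.48, 8.38 and 8.57 on vehicle arrays (change -0.13, 95% interval -0.32 to 0.06, limma adjusted p = 0.260). Psmb6, the caspase-like subunit, had 10.23, 10.22 and 10.23 on PLX3397 arrays and 10.35, 10.41 and 10.49 on vehicle arrays (change -0.19, interval -0.36 to -0.02, adjusted p = 0.0806). Its groups did not overlap, and with arrays centred on their medians it passed as lower, as did Psmb5. Psmb6 also passed when the variance was allowed to follow the level (limma adjusted p = 0.0291). Psmb7, the trypsin-like subunit, had 9.550, 9.565 and 9.567 on PLX3397 arrays and 9.480, 9.484 and 9.527 on vehicle arrays, without overlap. The means were 9.56 ± 0.01 and 9.50 ± 0.03 (SD, n = 3 each). The change of 0.06 (interval -0.10 to 0.23, limma adjusted p = 0.548) became -0.071 with centred arrays.

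The change of each immunoproteasome gene was set against that of the constitutive gene it replaces, through the difference between both genes on each array. Psmb10 minus Psmb7 changed by -0.77 on PLX3397 arrays relative to vehicle arrays, with no overlap between groups, and by -0.63 without PLX3397 replicate 3. Psmb8 minus Psmb5 changed by -0.30, also with no overlap. Psmb9 minus Psmb6 went the other way by 0.13, with overlapping groups. In two-sided exact permutation tests over the 3 arrays of each group the p-values were 0.1 for the first pair named, 0.1 for the second and 0.3 for the third, and 0.15, 0.15 and 0.3 after adjustment over the 3 pairs. This design cannot give an exact p below 0.1. The median change was -0.45 over the 5 immunoproteasome genes and -0.29 over the 31 constitutive subunit genes, and 11 of those 31 fell by more than the immunoproteasome median, so the ranges of both groups overlapped widely.

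Psmb9 and Psmb8 lie in the MHC class II region next to the peptide transporter genes, in the order Psmb9, Tap1, Psmb8, Tap2 in the RefSeq annotation of GRCm38.p6. Transcript levels of these neighbours differed in direction. Tap1 had 8.19, 8.42 and 8.29 on PLX3397 arrays and 7.98, 7.78 and 7.77 on vehicle arrays, a rise of 0.46 (SE 0.10, adjusted p = 0.00334), and Tap2 rose by 0.43 (SE 0.10, adjusted p = 0.00582). Psmb8, which stands between them, fell by 0.43. Psmb9 and Tap1 start back to back on opposite strands, 225 bases apart at chr17:34187331-34187555, so they share an upstream sequence while Tap1 rose and Psmb9 did not pass. That stretch is shown on the Tap1 strand, followed by the 250 bases before the start of Psmb8 on the plus strand at chr17:34197945-34198194, and by the 250 bases before the start of Psmb10, the gene with the larger fall, on the minus strand at chr8:105938393-105938642. Capitals mark matches to the motifs described after the sequences, which were taken from RefSeq.
Psmb9 and Tap1: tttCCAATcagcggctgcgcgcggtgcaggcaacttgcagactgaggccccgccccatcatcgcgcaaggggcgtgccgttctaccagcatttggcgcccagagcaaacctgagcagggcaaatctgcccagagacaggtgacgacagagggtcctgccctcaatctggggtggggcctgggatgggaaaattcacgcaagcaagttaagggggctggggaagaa
Psmb8: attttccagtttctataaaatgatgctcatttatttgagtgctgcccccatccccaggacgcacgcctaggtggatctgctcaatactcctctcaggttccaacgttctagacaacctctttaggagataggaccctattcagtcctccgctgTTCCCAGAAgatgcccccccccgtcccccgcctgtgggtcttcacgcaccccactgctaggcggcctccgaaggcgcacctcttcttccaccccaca
Psmb10: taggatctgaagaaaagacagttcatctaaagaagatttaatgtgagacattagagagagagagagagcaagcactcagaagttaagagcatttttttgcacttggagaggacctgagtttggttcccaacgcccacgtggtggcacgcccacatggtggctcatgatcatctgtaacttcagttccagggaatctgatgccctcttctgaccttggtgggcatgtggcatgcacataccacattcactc

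Promoter sequences were matched for 43 of the 51 proteasome genes and searched on both strands for 4 motifs over 250 bases. The gamma-activated site (TTCNNNGAA) was present upstream of Psmb8 and Psmg1, or 4.7% of the 43, against 8.1% of all 27025 genes with a promoter sequence. The match before Psmb8 is the stretch in capitals above. The interferon-stimulated response element (a pair of GAAA repeats with 2 bases of any kind between them) was present upstream of Psmb3, Psmd4 and Psmd9, or 7.0%, against 3.5% of all genes, and of none of the 5 immunoproteasome genes in these windows. The CCAAT box (CCAAT) was found for 16 of the 43, or 37.2%, against 37.5% of all genes, and lies in the stretch between Psmb9 and Tap1, beside the start of Psmb9. The antioxidant response element (TGACNNNGC), which NFE2L1 and NFE2L2 bind, was found upstream of Psmb5, Psmb6, Psmc6, Psmd12 and Psmd9, or 11.6%, against 11.5% of all genes. Among these 5, Psmc6 and Psmd12 fell and the others did not pass. A match describes the letters only.

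Of the 7 alpha subunit genes of the core, 6 fell and 0 rose, with a median change of -0.44. This count and those of the other roles below stand beside 18.3% of all genes and 34.7% of bright genes called lower. Psma6 had 9.27, 9.15 and 9.12 on PLX3397 arrays and 10.24, 10.14 and 10.21 on vehicle arrays, a 2.02-fold lower level (change -1.02, SE 0.08, adjusted p = 5.38e-06). Falls were also seen for Psma2 (change -0.66), Psma4 (-0.61), Psma1 (-0.44) and Psma5 (-0.43). Psma3 fell by 0.25 (adjusted p = 0.0240), and its other probe sets gave -0.21 each (limma adjusted p = 0.0570 and 0.0657 over all probe sets). The call for Psma3 also ended without PLX3397 replicate 1 or 3 or vehicle replicate 2 or 3 (limma adjusted p from 0.0600 to 0.0733). Psma7 did not pass, at 9.17, 9.36 and 9.04 on PLX3397 arrays and 9.29, 9.11 and 9.30 on vehicle arrays (change -0.04, adjusted p = 0.806). The transcripts of the proteins that share this ring thus ranged in change between those of Psma6 and Psma7.

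Of the 4 structural beta subunit genes 2 fell. Psmb3 had 8.48, 8.64 and 8.35 on PLX3397 arrays and 9.25, 9.14 and 9.41 on vehicle arrays, with no overlap (change -0.78, SE 0.10, adjusted p = 0.000178). Its second probe set gave a smaller change of -0.44 (SE 0.11). Psmb2 fell by 0.36 (adjusted p = 0.00481), and Psmb4 and Psmb1 had changes of -0.18 (adjusted p = 0.132) and -0.04 (adjusted p = 0.803).

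Changes in the regulatory particle ranged from -1.46 to 0.39. Of its 6 ATPase genes, whose products form the ring that unfolds substrates, 5 fell and 0 rose. Psmc6 changed most of all 51 proteasome genes, with 7.27, 7.17 and 6.67 on PLX3397 arrays and 8.44, 8.61 and 8.44 on vehicle arrays. It was 2.75-fold lower (change -1.46, SE 0.14, adjusted p = 2.06e-05), and the change was -1.28 without PLX3397 replicate 3, the array with the lowest value. The other falls were those of Psmc1 (change -0.73), Psmc2 (-0.56), Psmc3 (-0.44) and Psmc5 (-0.29), and Psmc4 did not pass (change -0.18, adjusted p = 0.0990). The call for Psmc5 (adjusted p = 0.0140) ended with quantile normalisation (limma adjusted p = 0.0936) and at a threshold of 0.01. A second probe set of Psmc1 gave -0.83 (SE 0.08), close to the -0.73 of the brighter probe set. The 250 bases before the start of Psmc6 on the plus strand, at chr14:45329574-45329823, are shown for the match to the antioxidant response element in capitals, here on the opposite strand.
Psmc6: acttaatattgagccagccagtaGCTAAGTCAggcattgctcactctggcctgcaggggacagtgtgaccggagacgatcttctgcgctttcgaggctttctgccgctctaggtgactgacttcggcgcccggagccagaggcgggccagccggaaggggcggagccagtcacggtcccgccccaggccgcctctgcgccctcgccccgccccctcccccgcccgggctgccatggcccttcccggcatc

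Of the 11 non-ATPase genes of the regulatory particle 6 fell and 1 rose. Psmd6 had 7.45, 7.43 and 7.13 on PLX3397 arrays and 8.18, 8.20 and 8.20 on vehicle arrays, and was 1.82-fold lower (change -0.86, SE 0.10, adjusted p = 6.22e-05). Psmd12, a scaffold subunit of the lid, fell by 0.73, and Psmd14, the deubiquitinase that removes ubiquitin chains as substrates enter, fell by 0.61 (SE 0.08, adjusted p = 0.000202). Psmd1, the large scaffold of the base, fell by 0.52, and falls were also seen for the ubiquitin receptor gene Psmd4 (change -0.29) and for Psmd7, the partner of Psmd14 (change -0.22, adjusted p = 0.0448). The call for Psmd7 ended under 7 of 15 alternatives, among them leaving out any array other than PLX3397 replicate 2 (limma adjusted p from 0.0896 to 0.108). That for Psmd4 ended without vehicle replicate 1 (limma adjusted p = 0.0578), with quantile normalisation (adjusted p = 0.061) and at a threshold of 0.01. Psmd8 rose, with 10.06, 10.14 and 9.95 on PLX3397 arrays and 9.67, 9.60 and 9.71 on vehicle arrays (change 0.39, SE 0.08, adjusted p = 0.00408), and its groups did not overlap. Psmd2, the other large scaffold of the base, had a change of 0.03 (95% interval -0.17 to 0.23, adjusted p = 0.831), and its second probe set gave 0.13 (SE 0.08). Psmd3, Psmd11 and Psmd13 had changes of -0.19, -0.13 and -0.06 and did not pass.

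**Figure D3:**
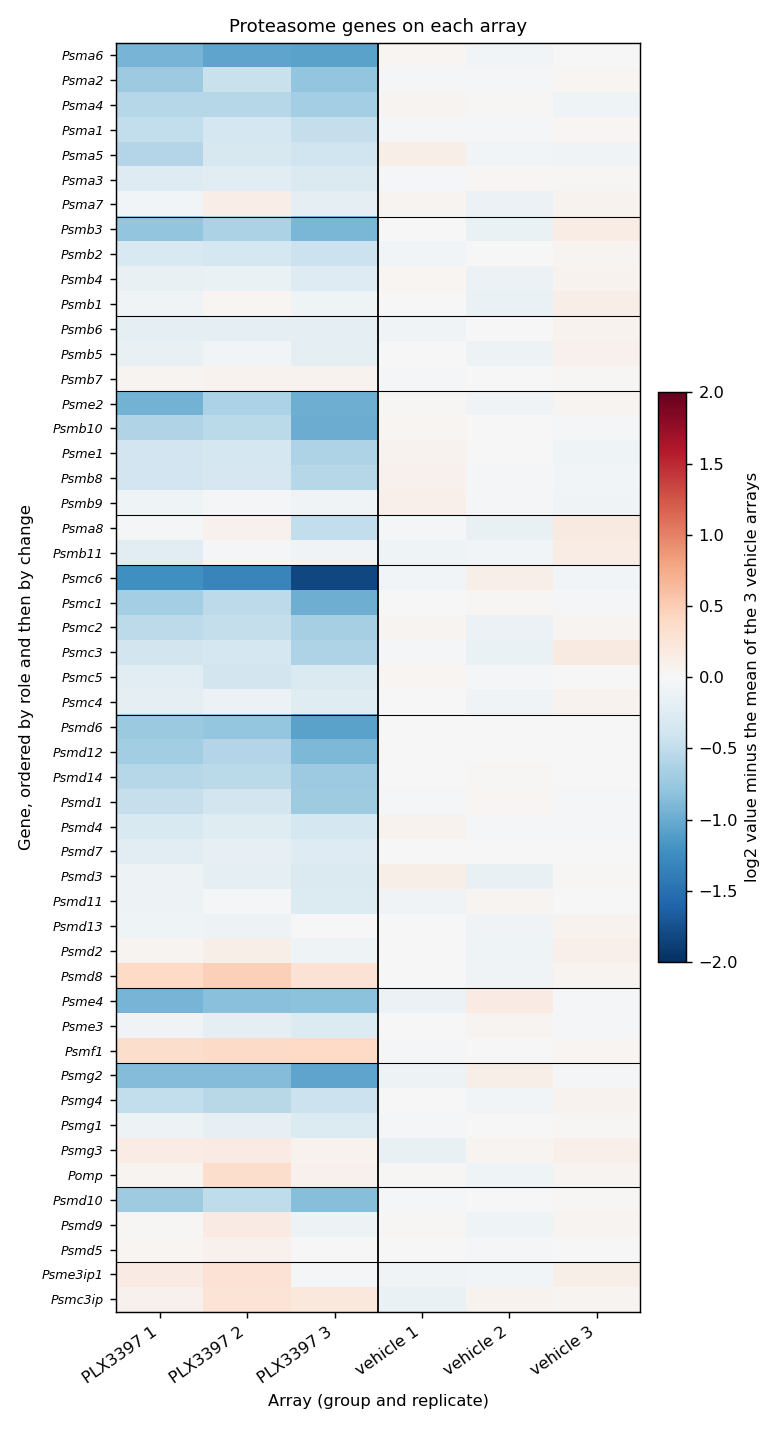
Log2 value of each proteasome gene on each array minus the mean of the 3 vehicle arrays, with genes in rows by role and PLX3397 arrays left of vehicle arrays. Blue cells are below the vehicle mean and red cells above it. Psmc6 and Psma6 are blue and Psmd8 and Psmf1 red on all 3 PLX3397 arrays, and many of the genes that fell are darkest on PLX3397 replicate 3.

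The other activators and the inhibitor went different ways. Psme4, which encodes the activator PA200, had 6.67, 6.75 and 6.77 on PLX3397 arrays and 7.48, 7.75 and 7.55 on vehicle arrays, and was 1.82-fold lower (change -0.86, SE 0.09, adjusted p = 3.85e-05). Psme3, the nuclear PA28 gamma gene, had a change of -0.17 (interval -0.36 to 0.01, adjusted p = 0.139). Psmf1 rose. It encodes PI31, which inhibits the 20S core in vitro and has been linked to proteasome transport and assembly, and it had 7.67, 7.70 and 7.71 on PLX3397 arrays against 7.29, 7.30 and 7.35 on vehicle arrays (change 0.38, SE 0.07, adjusted p = 0.00239). Psmf1 and Psmd8 were the only proteasome genes that rose.

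Among the 5 assembly factor genes of the core 2 fell and 0 rose, where 18.3% of all genes and 34.7% of bright genes were lower. Pomp, which helps to close the core and is known to favour immunoproteasome assembly, had 8.94, 9.23 and 8.98 on PLX3397 arrays and 8.92, 8.81 and 8.94 on vehicle arrays. Its groups were separated by less than the spread within them, and the change of 0.16 (95% interval -0.05 to 0.38, adjusted p = 0.222) did not pass. Psmg2, a chaperone of alpha ring formation, had 5.80, 5.80 and 5.62 on PLX3397 arrays and 6.57, 6.79 and 6.65 on vehicle arrays (change -0.93, SE 0.09, adjusted p = 2.29e-05). Its binding partner Psmg1 had a change of -0.18 (adjusted p = 0.0993). In the other chaperone pair, Psmg4 fell by 0.49 (SE 0.08, adjusted p = 0.000711) and Psmg3 had a change of 0.13 (adjusted p = 0.291). Of the 3 chaperones of the regulatory particle, Psmd10, which encodes gankyrin, fell by 0.69 (SE 0.10, adjusted p = 0.000251), while Psmd5 and Psmd9 had changes of 0.04 and 0.03. Psmc3ip, a meiotic recombination partner, and Psme3ip1 did not pass (adjusted p = 0.135 and 0.315).

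Across the 51 genes the signed change had little relation to the level, the promoter GC content or the gene length. As a description over genes measured on the same arrays, Pearson's r with the change was -0.15 for the mean log2 level (n = 51), -0.04 for the GC content of the promoter (n = 43) and -0.11 for the log2 length of the gene (n = 51). Spearman's rho was -0.07, 0.03 and -0.07. Over all genes r was -0.04 (n = 19938), -0.01 (n = 15614) and -0.07 (n = 19919).

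Genes that work with the proteasome outside the naming pattern were measured for 16 of 19 listed members, and 13 fell and 1 rose, with a median change of -0.37, where 18.3% of all genes and 34.7% of bright genes were lower. Zfand5, an activator of the regulatory particle, fell by 1.28 (SE 0.08, adjusted p = 1.45e-06), the proteasome-bound deubiquitinase gene Usp14 fell by 1.05 (SE 0.09, adjusted p = 9.57e-06), and the thioredoxin-like partner Txnl1 fell by 0.92 (SE 0.10, adjusted p = 3.87e-05). Zfand2a, a stress-induced partner of the particle, was the 1 that rose (change 0.61, SE 0.09, adjusted p = 0.000360). Of 9 listed genes of ubiquitin and its activation 4 were measured, and 3 fell and 1 rose, where 18.3% of all genes were lower and 19.6% higher. The activating enzyme gene Uba6 changed by -0.93 and the conjugating enzyme genes Ube2d3, Ube2n and Ube2k by -0.40, -0.22 and 0.47. The call for Ube2n (adjusted p = 0.0483) ended under 9 of 15 alternatives, leaving out any 1 array among them (limma adjusted p from 0.0540 to 0.132).

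NFE2L1 is the transcription factor that raises proteasome genes together when the protease is inhibited. Its gene had 8.47 ± 0.12 on PLX3397 arrays and 8.51 ± 0.10 on vehicle arrays (SD, n = 3 each; change -0.04, SE 0.09, adjusted p = 0.786). Of the 7 measured genes of this regulatory list 4 rose and 1 fell, where 19.6% of all genes were higher and 18.3% lower. The fall was that of Ngly1, which encodes the glycanase that processes NFE2L1 (change -0.41, SE 0.09, adjusted p = 0.00611). The rises were those of Maff (change 0.97, SE 0.13, adjusted p = 0.000214), Keap1 (0.32), Mafk (0.30) and Nfe2l2 (0.30), of which Maff alone passed under all 15 alternatives. The calls for Keap1, Mafk and Nfe2l2 ended with arrays centred on their medians, at a threshold of 0.01, and without PLX3397 replicate 1 (limma adjusted p = 0.0546, 0.0616 and 0.0982) or vehicle replicate 1 (adjusted p = 0.0503, 0.0636 and 0.0670). That of Keap1 also ended without each other array except PLX3397 replicate 3, and that of Nfe2l2 without vehicle replicate 3.

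The list of interferon-gamma signalling and class I peptide loading genes went both ways, where 19.6% of all genes were higher and 18.3% lower. Among bright genes 30.3% were higher and 34.7% lower, but some listed genes, such as Irf1 and Erap1, were dimmer than that set. Of 15 measured members of 17 listed, 6 rose and 5 fell, with a median change of -0.01. The loading genes Tap1, Tap2, Tapbp and B2m were all among the rises. The falls included Irf1, a transcription factor of immunoproteasome genes, which had 6.03, 6.46 and 6.08 on PLX3397 arrays and 6.98, 6.96 and 7.01 on vehicle arrays (change -0.79, SE 0.11, adjusted p = 0.000299). The receptor chain gene Ifngr1 fell by 0.66 (SE 0.09, adjusted p = 0.000219), the kinase gene Jak2 fell by 0.77 (SE 0.13, adjusted p = 0.000698) and the peptide-trimming enzyme gene Erap1 fell by 1.10. Ube2l6, which encodes an interferon-induced conjugating enzyme, fell by 0.32 (adjusted p = 0.0251). The rises were led by Irf8 (0.85, SE 0.10), the class I transactivator gene Nlrc5 (0.64, SE 0.13) and Tapbp, which tethers the peptide transporter (0.61, SE 0.08), and the class I light chain gene B2m rose by 0.39. The rise of Nlrc5 was seen with its brightest probe set, and the mean of its probe sets gave -0.13.

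**Figure D4:**
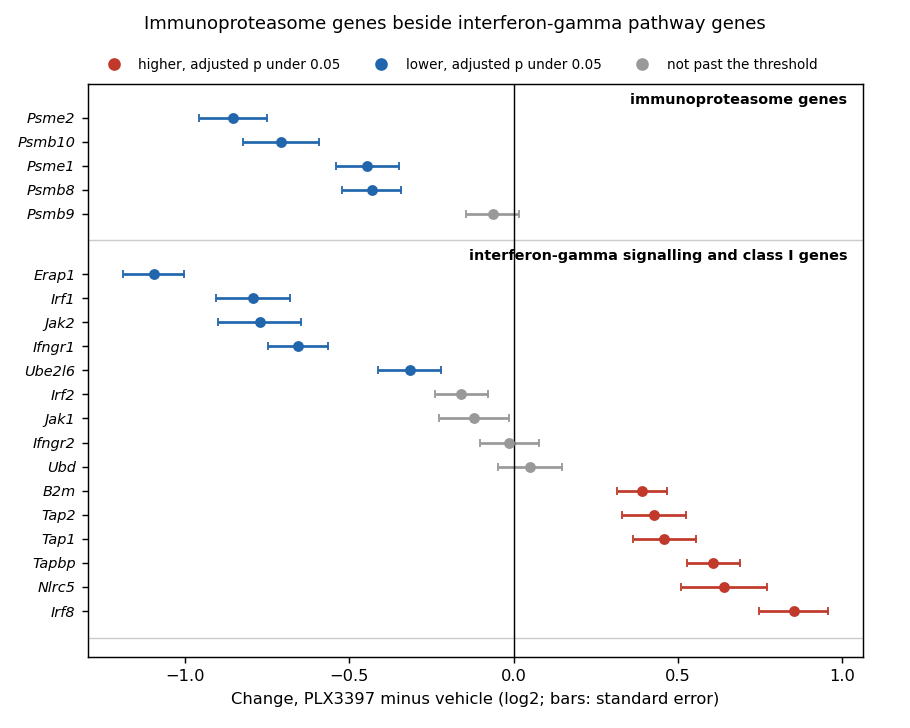
Change of the 5 immunoproteasome genes (top) and of 15 genes of interferon-gamma signalling and class I loading (bottom), PLX3397 minus vehicle on the log2 scale. Points are limma estimates with their standard errors. Psme2, Psmb10, Psme1 and Psmb8 are below 0, as are Erap1, Irf1, Jak2, Ifngr1 and Ube2l6, while B2m, Tap2, Tap1, Tapbp, Nlrc5 and Irf8 are above 0. Regulators thus lie on either side. The loading genes B2m, Tap1, Tap2 and Tapbp all lie above 0, and the peptide-trimming enzyme gene Erap1 lies below it.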

How the data were processed

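Total RNA of sorted macrophages was labelled with biotin and hybridised to Affymetrix Mouse Gene 1.0 ST arrays, per the labels' protocols. The authors deposited 1 log2 value for each probe set and array. Base 2 was inferred from the range of the values, 1.57 to 13.5. MAS5 is named, without version or role, per the submitters' processing notes, and not given in the sources used here are summarisation and normalisation between arrays. Array medians were 4.32 to 4.35 for PLX3397 and 4.21 to 4.25 for vehicle, so values were left as deposited, quantile normalisation being reserved for medians more than 0.5 apart. No batch could be examined.

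Of 28941 probe sets, 21789 are annotated with a single gene symbol. The brightest probe set over the 6 arrays represented each of 19938 genes (999 had several, among them 5 proteasome genes). Groups were compared with limma 3.58.1 in R 4.3.3 (two-sided moderated test by lmFit and eBayes with no covariates, Benjamini-Hochberg over all genes, threshold 0.05). The test was tried on simulated data with known shifts. The background level of an array is the 95th percentile of its 1190 vomeronasal and olfactory receptor genes (3.52 to 3.58). With 3 arrays per group, their number limits the precision. Roles were assigned from textbook knowledge.

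The members, lists and tests were chosen with earlier results of these data known. Values on every array are given for the 5 immunoproteasome genes, their 3 constitutive counterparts, Pomp and the 6 other proteasome genes of largest change that passed without overlap. Psmd8 and Psmf1, as the only rises, and Psma7, Tap1 and Irf1 were added to these. Of the other lists, Nfe2l1, Irf1, Nlrc5, Tap1 and up to 3 genes of largest change were to be named, and further ones were chosen after their values were seen. Alternatives covered quantile normalisation, centring, filters on dim genes, a variance trend, weighting of arrays, averaging over the probe sets of a gene, the replicate number as a block, a stricter threshold of 0.01 and leaving out each array. Same-numbered arrays of both groups did not deviate together (r = -0.010, 0.0080 and -0.013 over genes), so the replicate numbers were not taken as pairs.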

Additional observations from a re-analysis of the deposited data

How the results depend on the processing

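Of the 29 proteasome genes that passed, 25 passed under all 15 alternatives, and 0 changed sign. The calls of Psma3, Psmc5, Psmd4 and Psmd7 ended under at least 1, and 8 genes that did not pass gained a call, all 8 as lower with centred arrays. Calls numbered 25 to 37 and falls 23 to 35 over the alternatives, with 2 rises in each. Over all genes tested, the share called lower ran from 14.2% at a threshold of 0.01 to 36.1% with the filter on a mean level of 5. It was 25.9% with centred arrays and 18.3% in the main comparison. The 35 falls came with arrays centred on their medians, which moved the median change of all genes to -0.09, the genes called higher to 2282 (30.6% of calls, against 51.7%), the immunoproteasome median to -0.58 and the constitutive median to -0.43. Genes called higher numbered 2587 with a filter on a mean level of 5, which is 29.6% of the 8736 genes kept. At a threshold of 0.01 they numbered 2475, or 12.4%, and the main share was 19.6%. The constitutive median was -0.22 with quantile normalisation and -0.33 to -0.28 when each array was left out. The replicate block, whose numbers share no deviation, gave 28 proteasome calls, 26 of them falls, and ended the call of Psmd7 (adjusted p = 0.0822).

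Changes of genes that did not pass turned sign in places. With quantile normalisation Psmb9 was at 0.0076. With centred arrays Psmb7 was at -0.071, Psmd2 at -0.10, Psmd5 at -0.10, Psmd9 at -0.11 and Psmg3 at -0.0046. When each array was left out in turn, Psmd2 ran from -0.016 to 0.090, Psmd9 from -0.042 to 0.092, Psma7 from -0.13 to 0.038, Psma8 from -0.26 to 0.030, Psmb1 from -0.10 to 0.027 and Nfe2l1 from -0.11 to 0.017. Nlrc5 was at -0.13 on the mean of its probe sets. The cause of these shifts was not tested.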
